A study of Oryza sativa Indica Group with 64 samples.

Results

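In leaves of the rice variety IR64, 200 genes changed so little over a day and between control nights and warm night temperature (WNT) that the medians of their 16 sample groups stayed within a 1.43-fold range. They were taken by rule from the 57174 genes listed in the count files. Counts were divided by the sum of gene counts of the library and expressed as CPM, the count scaled to a library of 1000000 counts. The median of log2(CPM + 1) over the 4 replicates was taken in each group, and the range of a gene is the highest minus the lowest of the 16 medians. Among the 8886 genes with a mean of 20 to 500 CPM over all libraries, the 200 with the smallest range were kept, which is 2.25% of these genes and 0.350% of the genes listed. The rule is built on measured values, so the ranges are given as a description with no test.

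The plants were grown in a field plot in the dry season, and the WNT plants were warmed at night by an infrared heater. The paper names this treatment high night temperature. Leaves were labelled dawn, 3 h, 7 h, 10 h, dusk, 14 h, 17 h and 23 h, where the hours run from dawn, with 4 replicates of each treatment at each of these 8 times. All groups share the variety, the site and the tissue, so the 64 libraries describe a single genotype in a single season, and the labels do not say whether replicates came from separate plants or plots.

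Reference genes are genes whose transcript level is taken as steady, so that other transcripts can be measured against them in quantitative PCR or in the scaling of sequencing libraries. Genes for actin, tubulin, ubiquitin and translation factors are common choices, and their steadiness is checked anew for each tissue and treatment. Many leaf transcripts follow light and the circadian clock, so a reference for a time course has to hold at every hour that is sampled. CPM measures a share of the library, which means that a steady CPM is a steady share of all counted reads and not a steady number of molecules per cell. In bulk leaf samples, fewer cells of a type and less RNA per cell cannot be told apart. The identifiers of the files matched 0 entries of the gene name table used here, so the members are given by identifier, and their names, functions, positions and sequences, like the leaf marker genes, were not analysed here.

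The libraries held a median of 8627815 counts on genes (lowest 1714647, highest 37248564), which were 37.8% to 75.2% of their reads. No library repeated another. Libraries of a group differed in how far they lay from each other. In replicate 4 of control at 3 h, 44.0% of the 8886 genes lay more than 1.5-fold from the median of the other 3 replicates, and in replicate 4 of WNT at 3 h the share was 34.2%, against a median of 13.1% over all libraries. The next shares were 32.2% in replicate 1 of control at 14 h, 31.3% in replicate 3 of WNT at 23 h and 28.9% in replicate 1 of WNT at 7 h. In all, 12 libraries correlated more with another time of their treatment than with their own replicates, and genes are not independent replicates here. The other time was a neighbouring one, dawn and 23 h counted as neighbours, except for replicate 3 of WNT at 17 h, which had a share of 27.0% and a correlation across the 8886 genes of 0.936 with WNT at dusk and 0.825 with the other 3 replicates of its own group. The main counts are also given without this library and replicate 4 of control and of WNT at 3 h. This choice of 3 was made after seeing the data, and libraries with shares nearly as high were kept. Without the 3 the rule kept 171 of the 200 members.

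The smallest range was that of MH11t0209400, whose group medians ran from 34.9 CPM in WNT at 3 h to 42.4 CPM in WNT at 10 h, or 0.27 on the log2 scale. Its lowest, median and highest library were 28.7, 38.7 and 53.3 CPM in control and 22.4, 38.6 and 49.1 CPM in WNT. The 2 treatments overlapped over nearly their whole span, and the lowest library was replicate 4 of WNT at 3 h. MH03t0724500 had the same range of 0.27 at a higher level, with a mean of 120.0 CPM. Its libraries ran from 92.5 to 141.6 CPM in control and from 101.8 to 138.3 CPM in WNT, and its coefficient of variation (CV, the SD as a percent of the mean) over 64 libraries was 9.41%. Its highest group median was 130.9 CPM in control at 17 h and its lowest 108.1 CPM in WNT at 14 h.

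The next 8 genes in order of range were MH02t0070600 (0.29), MH08t0369300 (0.30), MH09t0472700 (0.31), MH12t0069600 (0.32), MH03t0236900 (0.32), MH04t0407700 (0.32), MH08t0102100 (0.32) and MH06t0694500 (0.33). Their mean levels ran from 27.7 CPM for MH06t0694500 to 140.3 CPM for MH03t0236900. Their highest levels fell at different times. MH12t0069600 was highest in control at 3 h with a group median of 83.8 CPM, the same group in which MH02t0070600 was lowest with 94.2 CPM. MH08t0102100 was highest in WNT at dawn, with 120.4 CPM.

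The limit of the rule cut through genes that hardly differ. The last 2 genes inside, MH02t0564400 and MH02t0639700, both had a range of 0.5166, and the first 2 outside had 0.5169 (MH02t0625500) and 0.5175 (MH07t0104200). A small range of medians did not always mean a small spread of libraries. MH07t0104200, just outside, ran from 138.7 to 679.4 CPM over the 64 libraries with a CV of 32.0%. The member MH10t0427400 had a CV of 30.6%, the highest among the members, from a single library that the median of 4 replicates passed over.

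Over all members the range had a median of 0.46 and lay between 0.27 and 0.52 on the log2 scale, or between 1.21 and 1.43-fold. The median range of the 8886 genes at this level was 1.43 on the log2 scale, with quartiles of 0.96 and 2.24. Of these genes, 8 stayed within 1.25-fold, 396 (4.46%) within 1.5-fold, 2479 (27.9%) within 2-fold and 6116 (68.8%) within 4-fold. The most stable genes were thus the edge of a continuous distribution, and no gap set them apart.

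**Figure D1:**
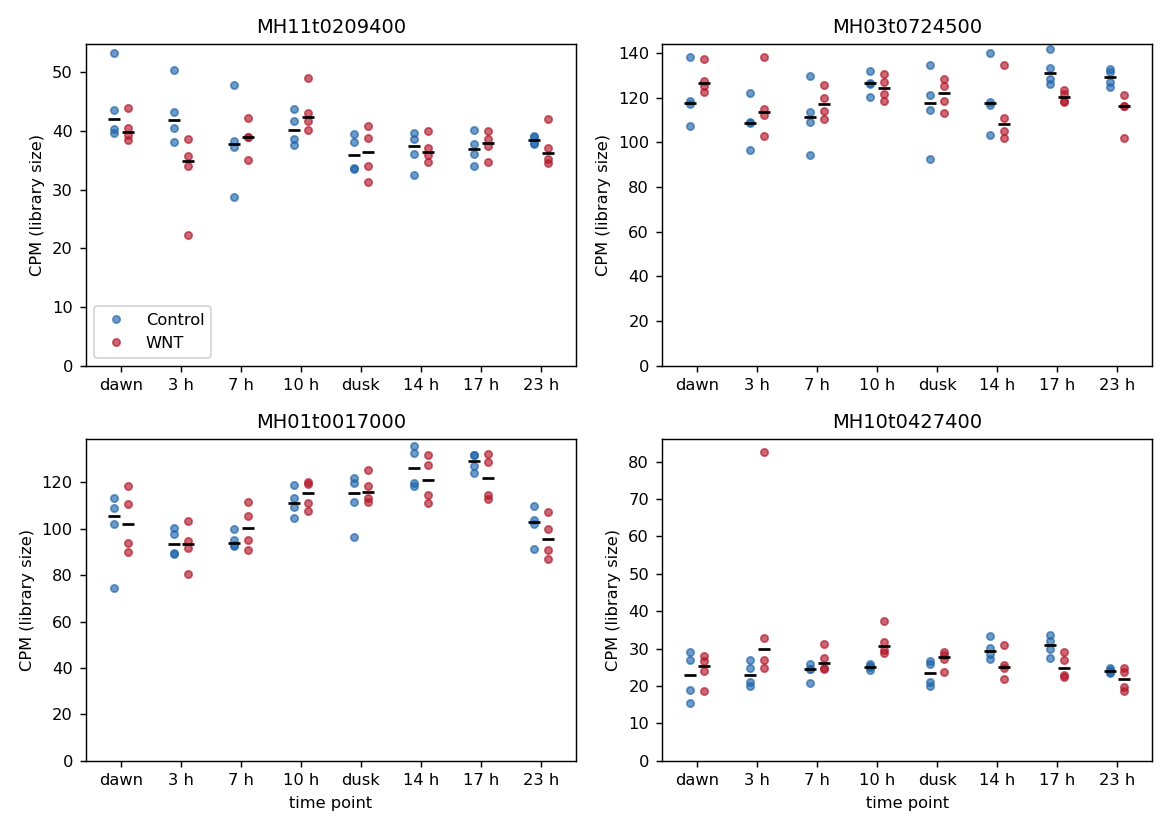
CPM (scaled by library size) of 4 members in each of the 64 libraries, by time point (x axis) and treatment (blue control, red WNT), with a black bar at the median of the 4 replicates. MH11t0209400 and MH03t0724500 have the smallest ranges, MH01t0017000 rises from a control median of 93.6 CPM at 3 h to 129.3 CPM at 17 h, and MH10t0427400 has a single library at 82.6 CPM.

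The members covered the level window almost to its ends. Mean levels ran from 20.4 CPM for MH04t0417600 to 371.9 CPM for MH05t0565500, with a median of 69.2 CPM, against 51.4 CPM for all genes of the window. Of the members, 34% were below 50 CPM and 29.5% above 100 CPM, where the window held 48.3% and 22.9%. Every member was counted in every library, and the lowest count of any member in any library was 32. The lowest member, MH04t0417600, had 16.1 CPM in its lowest control library, 20.3 CPM in the median and 29.9 CPM in the highest, with 14.2, 20.1 and 25.8 CPM in WNT. The highest member, MH05t0565500, had 217.9, 358.2 and 496.0 CPM in control and 285.5, 381.1 and 483.3 CPM in WNT. Both treatments overlapped in each of these genes.

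The SD between replicates of a group on the log2 scale had a median of 0.16 over the members and 0.29 over the window. Counting error alone would give 0.066 for the members and 0.084 for the window at these depths, so most of the spread between replicates was above counting error in both. The smallest replicate SDs were 0.11 in MH01t0371200, MH01t0809400 and MH01t0469800. In MH01t0371200 the 4 replicates of WNT at 10 h were 70.77, 75.04, 74.44 and 72.77 CPM, and those of control at 14 h were 94.63, 75.06, 87.03 and 86.65 CPM. The biological coefficient of variation that edgeR estimates for each gene had a median of 0.123 over the members, 0.192 over the window and 0.257 over the 20525 genes tested. A gene with noisy replicates has noisy medians, so the rule favours low replicate SDs and these values are not independent of it.

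The range over day and treatment was also set beside the replicate SD of each member. In 29 members the range was below 2 replicate SDs and in 150 it was below 3. The range is taken over medians of 4 replicates, whereas the SD is that of single libraries. These counts therefore do not tell how near a range is to replicate error. The CV over 64 libraries had a median of 14.0% in the members, from 9.39% to 30.6%, and of 35.3% in the window. In 139 of the 200 members every library lay within 1.5-fold of the gene's own median, and in 195 within 2-fold. The same held for 417 and 2869 of the 8886 genes of the window. The rule took genes with a small spread over these groups, so a lower CV and more genes within these limits are in part built in.

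Libraries differed in how many members they displaced. In 35 of the 64 libraries no member was more than 1.5-fold from its own median over all libraries. Replicate 4 of WNT at 3 h had 19 such members, 5 higher and 14 lower, and replicate 3 of control at dawn had 9, of which 8 were lower. The other 3 WNT libraries at 3 h had 0 each, and the other 3 control libraries at dawn had 0 or 1. Compared with the other 3 replicates of the group, the share of members more than 1.5-fold away was 9.5% in replicate 4 of WNT at 3 h, 8.5% in replicate 3 of control at dawn and 4.5% in replicate 4 of control at 3 h, with a median of 0.5% over all libraries.

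The range was then measured in libraries that had no part in the choice, with the same scaling by library size. Replicates may be technical, so the replicates left out may not be independent of those used to choose. When the rule was run on replicates 1 and 2 alone, the 200 genes it took had a median range of 0.53 in those libraries and of 0.61 in replicates 3 and 4, where all genes of the level window had 1.56. In the libraries left out, 165 of the 200 fell in the lowest 10% of ranges and 189 stayed within 2-fold, against 21.6% of the window. In the converse choice the median range in the libraries left out was 0.62, with 170 genes in the lowest 10% and 195 within 2-fold. The genes taken were in part others. Of each 200, 85 were shared between the choices from the separate pairs of replicates.

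The control and WNT groups were then used in the same way. The 200 genes chosen on the 8 control groups alone had a median range of 0.42 over the 8 WNT groups, where the window had 1.21, and 197 stayed within 2-fold against 39.1% of the window. The 200 chosen on WNT groups had a median range of 0.46 over the control groups against 1.26, and all but 1 of them stayed within 2-fold against 35.9%. In the treatment left out, 156 and 166 of the genes were in the lowest 10%. The choices shared 73 genes.

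The members still had a common daily course in CPM. Of the 200, 110 had their highest group median in control at 14 h or 17 h, 60 of them at 17 h, and 31 in WNT at these times. Lowest medians were more scattered, with 33 in control at 3 h and 22 each in control at 23 h, WNT at dawn and WNT at 10 h. The median deviation of the members from their own mean over the 16 groups ran from -0.12 in control at 3 h to 0.17 in control at 17 h on the log2 scale. From 3 h to 14 h, 184 members were higher at the later time in control, by a median of 0.27, and 153 in WNT, by a median of 0.14.

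This course depended on the scaling of the libraries. TMM, the trimmed mean of M-values, sets a factor for each library on the assumption that most genes do not differ, and here its factors ran from 0.695 to 1.36. In CPM scaled by TMM, 0 of the 200 members were higher at 14 h than at 3 h in either treatment, with a median difference of -0.44 in control and -0.44 in WNT. The median deviation then ran from 0.24 in control at dawn to -0.25 in WNT at dusk. Of the members, 192 had their highest group at dawn, 3 h or 23 h and 177 their lowest at dusk or 14 h. The direction of the daily course of the members was therefore opposite under the 2 scalings. In CPM without TMM the median deviation of the 20525 tested genes itself ran from -0.27 in control at 3 h to 0.32 in WNT at 14 h, a wider course than that of the members. The rule took genes with flat group medians on this scale, so the narrower course of the members is set by that choice.

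**Figure D2:**
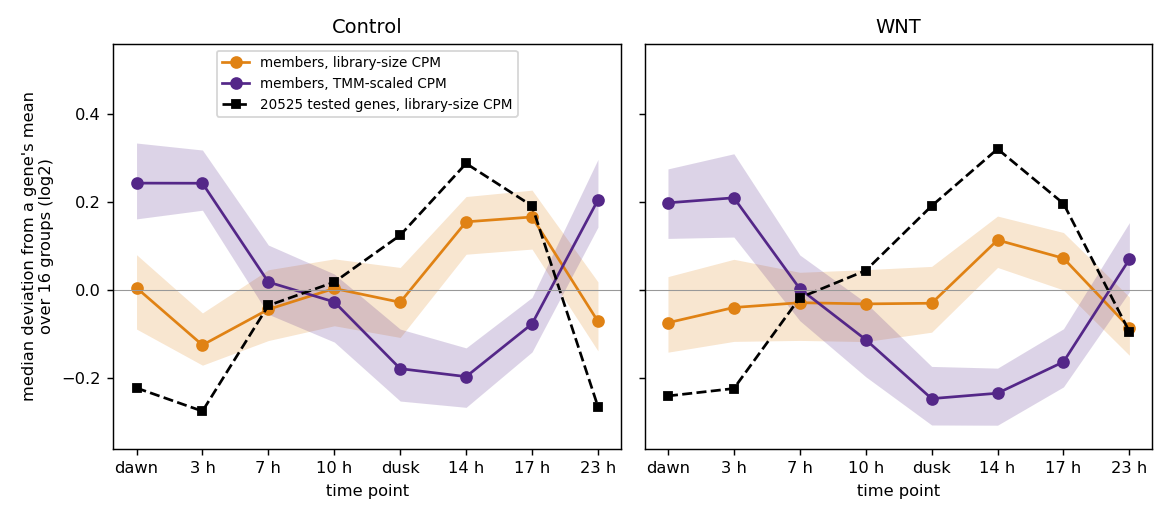
Median deviation of the 200 members from their own mean over 16 groups (y axis, log2) at each time point (x axis) in control and WNT, in library-size CPM (orange) and TMM-scaled CPM (purple), with bands from the lower to the upper quartile of the members. The dashed line is the median deviation of the 20525 tested genes in library-size CPM, which reaches 0.32 in WNT at 14 h while the members reach 0.11. The members were chosen as flat in library-size CPM.

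The same rule run on TMM-scaled CPM took almost entirely other genes. It shared 4 of its 200 genes with the members, and on CPM scaled by the size factors of DESeq2 (RLE) the rule shared 5. The members had a median range of 0.68 on TMM-scaled CPM, from 0.37 to 1.16, and a median rank of 1614.5 among the 8886 genes. The 200 genes taken on TMM-scaled CPM had a median range of 0.34 on that scale and of 0.76 in library-size CPM. With TMM scaling, the choice from replicates 1 and 2 had a median range of 0.55 in replicates 3 and 4. There 198 of the 200 stayed within 2-fold, against 30.7% of the window. In the converse choice these values were 0.53, 198 and 31.6%. These choices shared 10 and 2 genes with the members. Low ranges in libraries left out thus held under both scalings and do not tell which set is the steadier. MH11t0209400, first under the rule, had a TMM range of 1.00, with TMM-scaled group medians of 57.5 CPM in control at 3 h and 28.1 CPM in control at 14 h. In library-size CPM the same groups had 41.9 and 37.4 CPM. MH03t0724500 had a TMM range of 0.93, between 157.8 CPM in WNT at dawn and 82.4 CPM in WNT at 14 h.

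**Figure D3:**
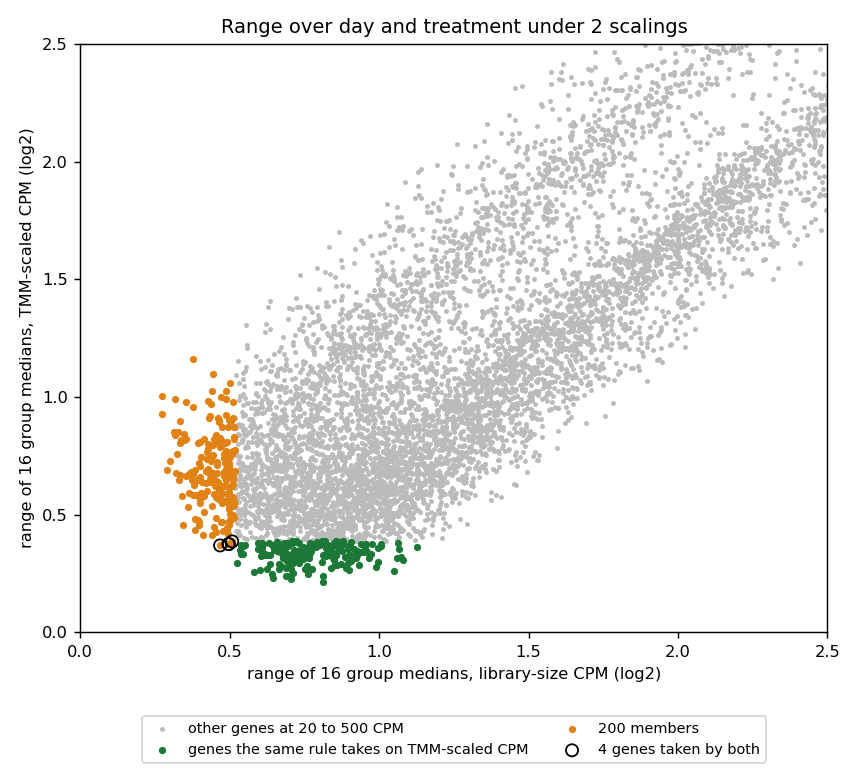
Range of the 16 group medians (log2) of each gene with a mean of 20 to 500 CPM in library-size CPM (x axis) and TMM-scaled CPM (y axis), with the members in orange, the genes that the same rule takes on TMM-scaled CPM in green and the 4 genes taken by both circled. Both axes end at 2.5, which leaves 2034 of the 8886 genes off the plot.

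The 4 genes taken under both scalings, picked here after their values were seen, were MH01t0017000, MH10t0397200, MH03t0114300 and MH04t0556200. Their ranges in library-size CPM were 0.47, 0.50, 0.50 and 0.51, and their TMM ranges 0.37, 0.38, 0.38 and 0.39. In MH01t0017000, with a mean of 108.6 CPM, the 4 replicates were 89.5, 89.3, 97.6 and 100.1 CPM in control at 3 h and 132.5, 119.8, 118.2 and 135.5 CPM in control at 14 h, and the groups did not overlap. On TMM-scaled CPM the medians of these groups turned round, at 122.6 and 96.9 CPM. Its course was thus small on both scales and opposite in direction.

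From 3 h to 14 h the share of counts held by the most counted genes fell, and the median TMM factor rose, in both treatments. The 100 genes with the highest mean CPM held a median of 27.0% of counts in control at 3 h and of 10.2% in control at 14 h. In WNT the corresponding shares were 21.2% and 11.5%. The median TMM factor was 0.747 in control at 3 h and 1.30 in control at 14 h. Of the control libraries at 3 h, replicate 4 alone had a share of 16.1% and a TMM factor of 1.06. When the 10, 100 or 1000 most counted genes were left out of the library sum, the rule kept 149, 118 and 47 of the members and took 10, 17 and 66 of the genes taken with TMM. The 200 members together held 1.43% to 1.93% of the counts of a library, with a median of 1.64%. The rule took genes with a flat share of the counts, so a narrow span of their sum is set by that choice.

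**Figure D4:**
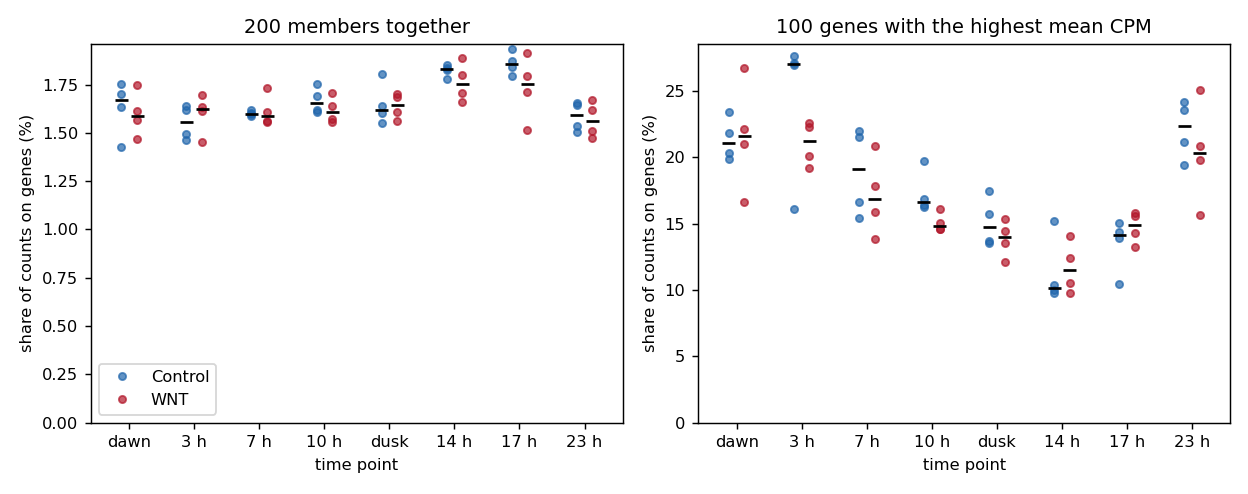
Share of the counts on genes (%) in each library held by the 200 members together (left) and by the 100 genes with the highest mean CPM (right), by time point and treatment (blue control, red WNT), with a black bar at the median of the 4 replicates. Single libraries lie between 1.43% and 1.93% for the members, which the rule chose for a flat share. The group medians of the 100 most counted genes run from 10.2% to 27.0%.

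A ratio of genes within a library does not depend on the scaling of that library. For each member the SD over 64 libraries of its log2 ratio to each of the other members was averaged, a measure of the kind used to rank reference genes in quantitative PCR. The median of this pairwise SD was 0.24 over the members, from 0.20 to 0.36. For the 200 genes taken on TMM-scaled CPM it was also 0.24. It was 0.28 for the genes at ranks 201 to 400 of the rule, 0.32 at ranks 801 to 1000, 0.49 at ranks 3201 to 3400 and 3.23 for the last 200 of the window. The ranks come from the rule on the same libraries, so a rise of the SD with rank is in part built in, and the values are a description. Within groups, between replicates only, the members had 0.21. The smallest SD of a single ratio was 0.10, between MH01t0371200 and MH04t0561800, whose log2 ratio ran from -1.24 to -0.82 with a median of -0.98.

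The 2 sets differed in their course over the day. The log2 ratio of the members to the genes taken with TMM had a group median of 0.23 in control at 3 h and -0.22 in control at 14 h, with libraries from -0.05 to 0.29 and from -0.27 to -0.10. In WNT it was 0.22 at 3 h and -0.21 at 14 h, with libraries from 0.08 to 0.26 and from -0.25 to -0.17. Libraries of the 2 times did not overlap in either treatment. The ratio was centred over the 64 libraries, so its sign carries no meaning and only the difference between times is read. Each set was chosen as flat under its own scaling in these libraries, and a course of their ratio that follows the difference between the scalings is set by that choice.

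Used as reference genes, the members gave a size factor for each library from their geometric mean. It differed from the library size by an SD of 0.11 on the log2 scale over the 64 libraries and by at most 1.18-fold. From the TMM factor it differed by an SD of 0.20 and at most 1.29-fold. The rule took genes that are flat after division by the library size, so a factor close to the library size is set by the choice of members. TMM and RLE differed from each other by 0.03, and TMM from library size by 0.26, at most 1.44-fold.

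The factor of all 200 was approached with few members. The first member alone differed from it by an SD of 0.20 on the log2 scale and by up to 1.49-fold in a library. The first 3 in rule order differed by 0.11 and up to 1.17-fold, the first 5 by 0.08, the first 10 by 0.07 and up to 1.12-fold, the first 20 by 0.06, and the first 50 by 0.03. The factor of all 200 contains these genes, so the difference has to shrink as more are used.

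**Figure D5:**
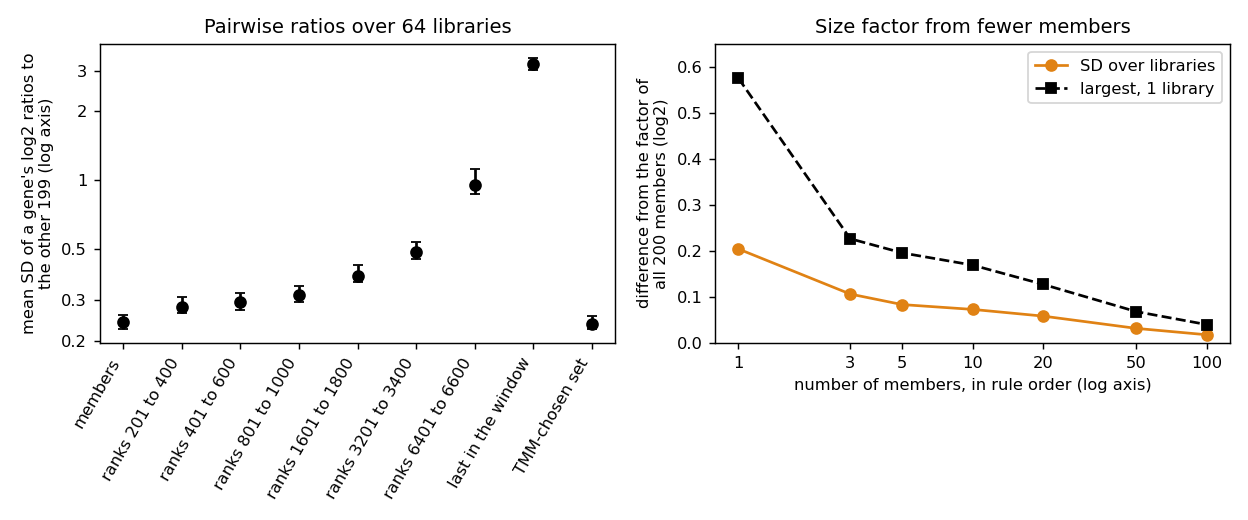
Left, the mean SD over 64 libraries of a gene's log2 ratios to the other 199 genes of its set (y axis, log scale) as median and quartiles over 200 genes, for the members, for genes at later ranks of the rule and for the genes taken with TMM. Right, the difference on the log2 scale between the size factor from the first 1 to 100 members (x axis, log scale) and that of all 200, as SD over libraries and as the largest in a library, which falls from 0.58 for 1 gene to 0.04 for 100.

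The members were also tested in a model of all 16 groups with TMM factors (edgeR's quasi-likelihood test, Benjamini-Hochberg adjustment over 20525 genes, all 200 members among them). The rule used the same libraries and contrasts, so these counts are a description and nothing is read from them. CPM values of single genes printed beside these tests are scaled by library size. Their fold changes and adjusted p come from the fit with TMM. For time of day, 171 members had an adjusted p under 0.05 in control, where 68.5% of all tested genes did, and 177 in WNT, where 71.2% did. With library size only, the counts were 111 members beside 78.2% of all genes in control and 71 members beside 76.8% in WNT. With the factor from the members, they were 56 beside 73.1% and 63 beside 75%. The member with the smallest p for time of day in control was MH07t0358100 (adjusted p = 2.4e-11 from edgeR). Its replicates were 39.9, 40.4, 44.0 and 40.6 CPM at 23 h and 25.4, 28.7, 33.3 and 30.9 CPM at dusk in control, and these groups did not overlap.

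Between WNT and control, 2 members were called at any of the 8 times, where 7.35% of all tested genes were, and both at 3 h. In MH10t0427400 the replicates of WNT at 3 h were 32.8, 26.9, 24.9 and 82.6 CPM and those of control 21.0, 24.7, 27.0 and 20.1 CPM. The log2 fold change was 0.88 (adjusted p = 0.00994 from edgeR). In MH02t0516200 they were 64.9, 63.6, 70.8 and 117.3 CPM in WNT and 50.4, 42.5, 60.6 and 69.2 CPM in control, with a log2 fold change of 0.54 (adjusted p = 0.0177 from edgeR). The groups overlapped in both genes, and in each the highest library was replicate 4 of WNT at 3 h. Without replicate 4 of all WNT groups, 0 members were called, but the calls over all genes also went from 1508 to 303 (1.47%). Without the 3 libraries left out above, 1 member was called beside 662 genes (3.19%). These genes were named after their values were seen.

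For the mean of the 8 differences, 1 member was higher in WNT, where 10.1% of all tested genes were, and 34 were lower, where 9.01% were. The higher one was MH12t0353900, with a mean log2 difference of 0.15 (adjusted p = 0.0059 from edgeR, standard error 0.04). Its libraries had a lowest, median and highest value of 62.7, 82.3 and 110.4 CPM in control and 69.0, 96.1 and 113.4 CPM in WNT, which overlap. The lower one with the largest difference was MH02t0639700, at the limit of the rule, with -0.29 (adjusted p = 5.67e-05 from edgeR, standard error 0.05). It had 167.0, 223.6 and 312.2 CPM in control and 143.9, 188.3 and 254.5 CPM in WNT. At dawn its replicates were 257.4, 202.7, 196.8 and 250.6 CPM in control and 186.0, 170.8, 178.1 and 143.9 CPM in WNT, with no overlap.

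Over the members the mean log2 difference with TMM had a median of -0.06, where that of all tested genes was 0.0039, and 164 members were below 0. The differences ran from -0.29 to 0.15, where those of all tested genes ran from -2.32 to 3.91, and 3 members exceeded 0.2 in size. The counts of 164 and 3 were not taken over all tested genes, and nothing is read from them. With library size only, the median of the members was -0.02, with 1 member higher and 12 lower, and with the factor from the members it was 0.0024, with 7 higher and 13 lower. Without the 3 libraries left out above, 45 members were called for the mean beside 19.4% of 20771 tested genes, 184 for time of day in control beside 70.1% and 179 in WNT beside 69.3%. The balance over all genes moved with the scaling too. With TMM, 2068 genes were higher in WNT and 1850 lower, with library size only 2255 and 1002, and with the factor from the members 2963 and 930. No member had a WNT effect that differed between times at an adjusted p under 0.05, where 0.365% of all tested genes did. At that share 200 genes would hold fewer than 1 call, so the count of 0 says little about the members. In DESeq2 it was also 0, beside 2.19% of all tested genes, and 5 members (2.5%) had an unadjusted p under 0.05 in edgeR, where 10.2% of all tested genes did.

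By the leading characters of the identifier (MH01 to MH12), the members were spread over all 12 series of identifiers. They made up between 1.68% of the window genes of MH06, with 12 members, and 3.39% of those of MH11, with 13 members. The numbers of members were highest in MH01 and MH03, with 29 each, which also had the most genes in the window.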

How the data were processed

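RNA-seq of poly(A) RNA from 64 leaf libraries was used, grouped by the treatment and time in the labels. The authors deposited raw counts of reads per gene, whole numbers without normalization, with 5 closing lines for other reads, which were left out. The submitters' processing notes name HISAT2 2 and HTSeq 0.6.0. The genome build and annotation are not given in the sources used here. The sources do not say whether counting used strand, and genes that overlap, lie antisense or have near-identical copies are uncertain. The members and lists were chosen with earlier results of these data known.

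CPM was computed on the sum of gene counts (1714647 to 37248564 per library), with a pseudocount of 1 on the log2 scale. A floor of 3 counts and counting SDs cover counting error only, since PCR reads without molecular identifiers are not independent. Tests used edgeR 4.0.16 in R 4.3.3 (filterByExpr, count minimum 10, total 15, TMM, glmQLFit robust, glmQLFTest on 16 group means), with calls at an adjusted p under 0.05, after the script was tested on simulated data. Replicates may be technical, so p-values measure the spread between these samples. Alternatives were RLE, library size only, the members' factor, no filter, DESeq2 1.42.0, a replicate block, other pseudocounts, level windows and measures of range, and leaving out replicates. The library sums without the most counted genes and the fit without 3 libraries were added after seeing the data. Python 3.11.15 and matplotlib 3.10.9 made the plots.

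Genes were named by rule: the 10 smallest ranges, the 2 genes on each side of the limit, the highest and lowest mean CPM, the 3 smallest replicate SDs, the largest called rise and fall in WNT and the smallest p for time of day in control.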

Additional observations from a re-analysis of the deposited data

Results flagged for a closer look

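Within groups of 4, the library farthest from the others was checked by Dixon's criterion for 3 measures in 16 groups, 48 checks in all. For measured values chance marks about 1 in 20 groups, a rate that does not apply to counts with ties. It marked 7, of which 4 are a count of 1 against 0. In replicate 4 of WNT at 3 h the SD over members of the log2 deviations was 0.36, against 0.15 to 0.17 in the other replicates, and 19 members were more than 1.5-fold from their own median, against 0. In replicate 3 of control at dawn the number of such members was 9, against 0 or 1. In replicate 4 of control at dusk, replicate 1 of control at 23 h, replicate 4 of WNT at 10 h and replicate 1 of WNT at 17 h it was 1, against 0 in each of the others, which is a difference of a single gene.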

How the results depend on the processing

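Of 84 alternative values beside those that leave out a replicate, 56 kept the size of the main value, 21 moved and 7 turned sign. Counts and shares were said to move when they changed by more than 1.5 times. For log2 values the limit was the replicate SD of the members, and for the members' factor its own SD within groups. For the replicate SD itself the limit was its SD over the members. Counts, shares and ranges have no sign. Those that turned were the members' course from 3 h to 14 h in log2 CPM, 0.27 in control and 0.14 in WNT. It was -0.44 and -0.44 with TMM, -0.39 and -0.41 with RLE, and -0.19 and -0.19 with the library sum without the 1000 most counted genes. Without the 100 most counted it was 0.0205 in control and -0.023 in WNT. These alternatives of the course were chosen after seeing the data. The rule kept 2% of the 200 members with TMM, 2.5% with RLE, 66% with mean CPM of 50 to 500, 58.5% with control groups only, 54% with WNT groups only, 57.5% with replicates 1 and 2 only, 59% with replicates 3 and 4 only, and 59% and 23.5% with the library sum without the 100 and 1000 most counted genes. Members called at any time (2, beside 1508 of all genes) were 5 with the factor from the members (1388), 1 without a filter (1008), 7 with DESeq2 (2355) and 1 without the 3 libraries left out (662). For the mean difference (35, beside 3918) they were 13 with library size only (3257), 20 with the factor from the members (3893) and 18 without a filter (2853). For time of day they were 111 and 56 in control (171) and 71 and 63 in WNT (177) with library size only and with the factor from the members. The cause of these changes was not tested.

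When replicates were left out, the share of members kept ranged from 68% to 99%, the replicate SD from 0.158 to 0.172, the calls at any time from 0 to 7, for the mean from 12 to 63, for time of day from 128 to 168 in control and from 129 to 180 in WNT, the course from 0.23 to 0.28 in control and from 0.07 (without replicate 4) to 0.18 in WNT, and for effects differing between times from 0 to 0. For the mean, the calls were 12, 18 and 63 without control replicates 1, 2 and 4 (all genes 2478, 2806 and 4238), and 21 and 15 without WNT replicates 2 and 3 (3231 and 1916). At any time they were 1, 1 and 7 without control replicates 1, 2 and 4 (893, 1255 and 1382), and 5 and 0 without WNT replicates 3 and 4 (1747 and 303).

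Same-numbered libraries of control and WNT did not deviate together (mean correlation -0.03 over 32 pairs, 12 of them over 0.1), so the numbers were not treated as pairs of samples. With the replicate block, 2 members were called at any time, 33 for the mean, 172 and 177 for time of day in control and WNT, and 0 for effects differing between times, and over all genes the last went from 75 to 39. The lowest count of a member in a library was 32.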
